A study of Homo sapiens with 6 samples.

Results

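Matrix metalloproteinases (MMPs) and the tissue inhibitors of metalloproteinases (TIMPs) were examined in NCI-H660 (H660) cells with and without silencing of MUC1-C. The 10 genes were MMP1, MMP2, MMP7, MMP9, MMP13, MMP14, MMP15, MMP16, TIMP1 and TIMP2, found by their symbols among the 28008 symbols of the count table. The family was chosen by the measured MMP13 counts, since MMP13 rose in this contrast, so the MMP13 difference is given below as a description, and its place among the called genes is used as no evidence. H660 is a line of neuroendocrine prostate cancer (NEPC), and MUC1-C is the C-terminal, membrane-spanning part of the MUC1 mucin. All libraries came from H660 cells that carried a tetracycline-inducible MUC1 short hairpin RNA (shRNA) and had been selected with puromycin. The DOX-negative group (n = 3) received 0.1% DMSO as vehicle, and the DOX-positive group (n = 3) received doxycycline (DOX) at 500 ng/ml. Exposure lasted for a week. Cells with a control hairpin and DOX were not analysed here, so the action of DOX and that of the MUC1 shRNA cannot be told apart. DOX is itself a known inhibitor of MMP enzyme activity, which RNA levels do not measure.

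MMPs are zinc proteases that cut collagens, fibronectin, laminins and other proteins of the extracellular matrix. Most are made as inactive precursors whose propeptide must be removed, by plasmin, by furin or by another MMP. Collagenases such as MMP1 and MMP13 cut fibrillar collagen, gelatinases such as MMP2 and MMP9 cut denatured and basement membrane collagen, and membrane-type MMPs such as MMP14, MMP15 and MMP16 act at the cell surface. TIMPs bind the active site and block it, and TIMP2 also takes part in the activation of MMP2 by MMP14. MMPs are studied in prostate cancer for their part in invasion and bone metastasis.

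Libraries held 47620696 to 74061121 counts, and 17026 genes had enough counts to be tested with edgeR's quasi-likelihood method. A gene was called at a Benjamini-Hochberg adjusted p under 0.05, which 829 genes reached, with 496 higher and 333 lower in DOX-positive cells. Without DOX-negative replicate 2, DOX-negative replicate 3 or DOX-positive replicate 3, 127, 58 and 375 genes were called, respectively. MUC1, the targeted gene, fell from 86.0 ± 5.65 to 34.6 ± 4.08 normalized CPM (counts scaled to library size; SD, n = 3), with a fitted log2 ratio of -1.32 (SE 0.096, adjusted p = 0.00017). The cultures were triplicates, and the sources used here do not say how independent they were, so p-values measure the spread between these samples. Markers of neuroendocrine cells summed to 894.9 to 1006.8 CPM in the DOX-negative and 799.6 to 889.7 CPM in the DOX-positive libraries. Of the 8 neuroendocrine markers, 2 were called, both lower in DOX-positive cells (INSM1 and NCAM1), beside 1.96% of all tested genes called lower. CHGB was higher without overlap but not called (log2 fold change 0.29, SE 0.11, adjusted p = 0.17).

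H660 cells expressed a narrow set of these genes. The most abundant member in TPM, a transcript abundance scaled by gene length and library, was the membrane-type protease MMP15, at 13.2 ± 1.75 TPM (SD over all 6 libraries, range 10.6 to 15.3). TIMP2 followed at 7.44 ± 1.16 TPM, and its range of 5.68 to 8.61 lay below that of MMP15. MMP24 and MMP16, further membrane-type proteases, reached 3.04 ± 0.434 and 2.92 ± 0.539 TPM and did not differ beyond their spread. MMP17 followed at 1.04 ± 0.255 TPM and MMP9 at 0.668 ± 0.166 TPM, with ranges that overlapped. MMP11 stood at 0.259 ± 0.0379 TPM and TIMP3 at 0.239 ± 0.0675 TPM over all libraries, but their order differed between the groups. In each DOX-negative library MMP11 was the higher, with means of 0.283 ± 0.0283 against 0.185 ± 0.0522 TPM. In each DOX-positive library TIMP3 was the higher, with means of 0.292 ± 0.0112 against 0.235 ± 0.0326 TPM. MMP13 stood at 0.0798 ± 0.0022 TPM in DOX-negative and 0.271 ± 0.060 TPM in DOX-positive cells. The DOX-negative SD of MMP13 rests on 22 or 23 reads per library and is smaller than their counting error. For DOX-negative replicate 1 the 95% counting interval was 0.228 to 0.540 CPM around 0.360 CPM. MMP14 stood at 0.0366 ± 0.00456 TPM over all libraries. TIMP1 and MMP1 stood at 0.0232 and 0.00703 TPM, and MMP2 and MMP7 at 0.

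Deposited TPM are low for messenger RNA in these libraries, since protein-coding genes held only 13.2% to 19.6% of the TPM of a library while taking 76.1% to 81.6% of its counts. The top gene by TPM was RN7SK in 5 libraries and SNORD3A in DOX-negative replicate 3, both short noncoding RNAs, at 25.7% to 34.5% of all TPM. When TPM were rescaled over protein-coding genes, MMP15 stood at a mean of 82.4 TPM, above 86.9% of coding genes, and TIMP2 at 46.2 TPM, above 76.3%. MMP16 at 18.1 TPM and MMP9 at 4.13 TPM stood above 57.5% and 39.8% of coding genes. MMP13 stood at 0.51 ± 0.092 rescaled TPM in DOX-negative and 1.69 ± 0.445 in DOX-positive cells.

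**Figure D1:**
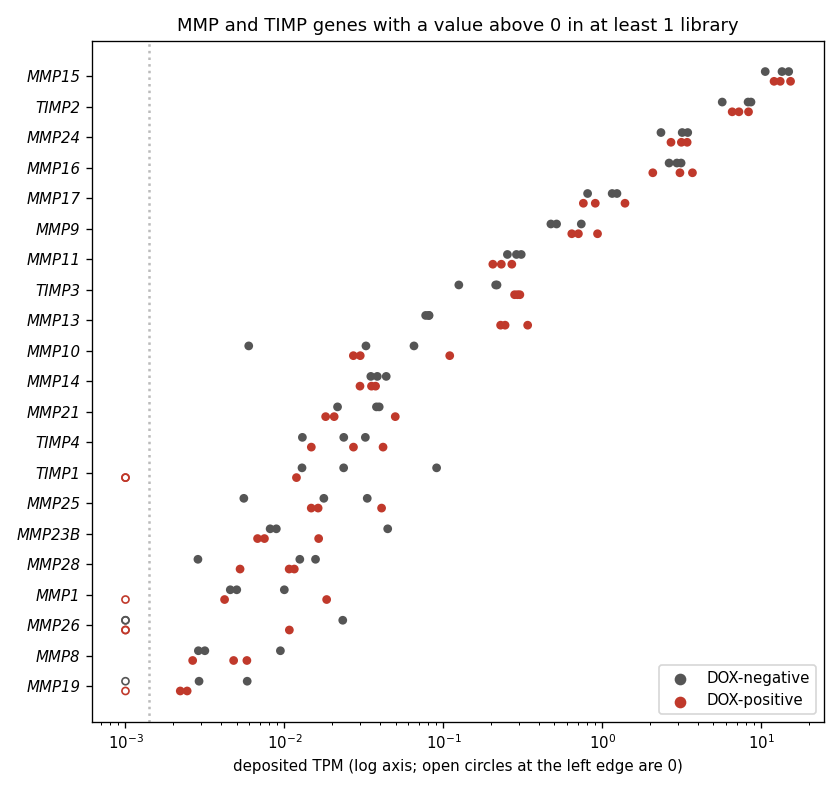
Deposited TPM of the MMP and TIMP family genes on a log axis, with points for the DOX-negative and DOX-positive libraries. MMP15 sits highest at 10.6 to 15.3 TPM, TIMP2 is next, and the DOX-positive points of MMP13 (0.229 to 0.339 TPM) stand to the right of its DOX-negative points. Open circles mark libraries at 0.

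Summed over 23 MMP genes, the level was 21.1 ± 3.34 TPM in DOX-negative and 22.0 ± 3.32 TPM in DOX-positive cells (SD, n = 3). The 4 TIMP genes summed to 7.77 ± 1.62 and 7.69 ± 0.909 TPM. Both sums are in deposited TPM, so their spread includes that of the protein-coding share (13.2% to 19.6% of a library's TPM). Rescaled over protein-coding genes, MMP15 stood at 81.5 ± 1.90 TPM in DOX-negative and 83.2 ± 5.59 TPM in DOX-positive cells. The ratio of MMP to TIMP transcripts was 2.73 ± 0.179 without and 2.85 ± 0.0934 with DOX, and the groups overlapped, with 2.59 to 2.93 in the DOX-negative and 2.76 to 2.94 in the DOX-positive libraries. MMP15 alone made up 59.9% to 63.5% of all MMP TPM, and the membrane-type genes (MMP14, MMP15, MMP16, MMP17, MMP24 and MMP25) together made up 93.5% to 95.6%. MMP13 made up 0.387% ± 0.071 of MMP TPM in DOX-negative and 1.25% ± 0.311 in DOX-positive cells.

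RefSeq promoter sequences (GRCh38.p14) were matched for 4 of the 10 members, and the 100 bases before the start of each are printed 5′ to 3′ because they set the most abundant member, MMP15, beside 3 members with 0 to 18 reads per library. Capitals mark the letters of an AP-1 element (TGAGTCA or TGACTCA) or a TATA box (TATAAA), each searched on both strands. The windows are chr16:58025654-58025753 on the plus strand for MMP15, chr11:102530748-102530847 on the minus strand for MMP7, chr14:22836485-22836584 on the plus strand for MMP14 and chrX:47582336-47582435 on the plus strand for TIMP1.
MMP15: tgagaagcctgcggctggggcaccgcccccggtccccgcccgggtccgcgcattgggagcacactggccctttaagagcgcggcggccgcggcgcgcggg
MMP7: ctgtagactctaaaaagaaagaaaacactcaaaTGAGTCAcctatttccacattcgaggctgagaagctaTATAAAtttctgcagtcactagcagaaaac
MMP14: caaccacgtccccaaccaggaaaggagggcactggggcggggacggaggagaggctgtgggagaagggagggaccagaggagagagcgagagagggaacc
TIMP1: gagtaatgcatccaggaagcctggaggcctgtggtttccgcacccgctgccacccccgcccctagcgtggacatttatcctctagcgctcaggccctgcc
The MMP7 window held an AP-1 element that begins 67 bases and a TATA box that begins 30 bases before the start, and its GC content was 37%. Neither set of letters was in the MMP15, MMP14 and TIMP1 windows, whose GC contents were 78%, 66% and 64%. Among 35116 promoter windows of the same length, 1.94% held the AP-1 letters, 4.99% held TATAAA, 0.125% held both, and the median GC content was 60%. These matches describe the letters only.

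MMP13, also called collagenase 3, is a secreted collagenase with a preference for type II collagen, known from cartilage and bone. The gene lies at chr11:102942995-102955732. In order of replicate number, its reads were 23, 22 and 22 without DOX and 72, 74 and 121 with DOX. Scaled to library size, these were 0.360, 0.356 and 0.462 CPM without and 0.952, 1.35 and 1.64 CPM with DOX. Every DOX-positive library was above every DOX-negative one, and DOX-positive replicate 3 was the highest. Group means stood at 0.39 ± 0.060 and 1.31 ± 0.35 CPM (SD, n = 3), with a fitted log2 fold change of 1.75 (SE 0.26), or a 3.36-fold rise. With DOX-positive replicate 3 left out the log2 fold change was 1.55, and with DOX-positive replicate 1 left out it was 1.94. In bulk RNA, a rise of MMP13 in every cell and a rise in a few cells cannot be told apart.

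Of the 10 members, 6 had enough counts to be tested, and 1 of these, MMP13, was called, beside 4.87% of all tested genes called in either direction 2.91% called higher and 1.96% called lower. Because the MMP13 rise chose the family, nothing is read from this count. The groups did not overlap for MMP13 either, which its choice favours. Among the other 5 tested members they did not overlap for 1, MMP9, higher with DOX, beside 14.8% of tested genes in that direction. The median log2 fold change of the 6 tested members, MMP13 included, was 0.0052, against 0.00034 over all tested genes. The other 5 tested members (MMP9, MMP14, MMP15, MMP16 and TIMP2) had adjusted p-values of 0.16 to 0.89.

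**Figure D2:**
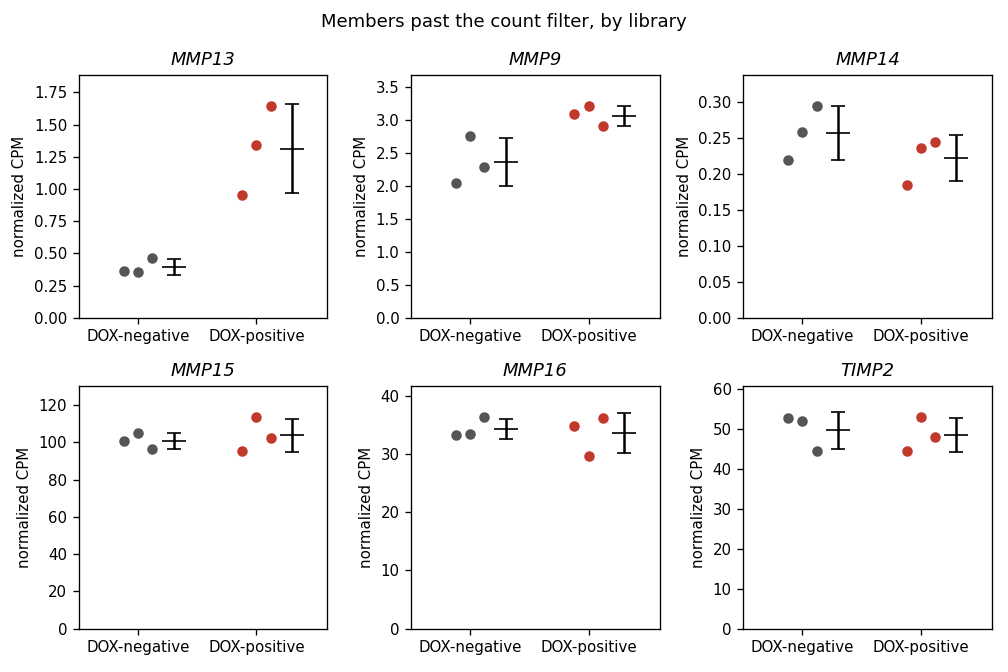
Normalized CPM of the 6 members with enough counts to be tested, with a point for each library and the mean ± SD of 3 libraries beside them, on axes that start at 0. MMP13 and MMP9 show no overlap between the groups, and the other 4 genes do.

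MMP1, the interstitial collagenase, lies at chr11:102789919-102798160 within the transcribed pseudogene WTAPP1. It had 1, 2 and 1 reads in the DOX-negative and 4, 1 and 0 reads in the DOX-positive libraries. With 4 and 5 reads per group the ratio was 1.06 (95% counting interval 0.228 to 5.35, which covers counting error only), so a difference was not detectable at this depth. Reads of WTAPP1, a mean of 29.3 per library, may be hard to separate from those of MMP1 where the counting did not use strand. MMP8, the neutrophil collagenase, had 1 to 3 reads per library.

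MMP9, or gelatinase B, cuts type IV collagen and denatured collagen, and its gene lies at chr20:46008908-46016561. It had 130, 170 and 109 reads in the DOX-negative and 233, 176 and 214 reads in the DOX-positive libraries. As normalized CPM these were 2.03, 2.75 and 2.29 against 3.08, 3.20 and 2.90. All DOX-positive libraries were above all DOX-negative ones, with means of 2.36 ± 0.36 and 3.06 ± 0.15 CPM (SD, n = 3), although the groups overlapped in deposited TPM. The log2 fold change was 0.38 (SE 0.15), and MMP9 missed the threshold in the edgeR test (adjusted p = 0.16) and in each of 18 alternative fits. The antisense gene SLC12A5-AS1, with a mean of 103.2 reads, overlaps MMP9. MMP2, gelatinase A, which MMP14 and TIMP2 activate, had 0 reads in every library. A count of 0 among the 377276141 reads of the 6 libraries allows up to 0.00795 CPM for MMP2, counting error only.

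MMP7, or matrilysin, is a small secreted MMP made mostly by epithelial cells. MMP7 also had 0 reads in every library, with the same upper limit of 0.00795 CPM. Its promoter window is printed above. The stromelysin MMP10 had 6, 11 and 1 reads in the DOX-negative and 20, 6 and 6 reads in the DOX-positive libraries, and these overlapped. MMP3, MMP12, MMP20 and MMP27 were at 0 in all 6 libraries.

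MMP13 belongs to a cluster of MMP genes on chromosome 11, and its neighbours were compared by position. Taking distances from the lower coordinate of MMP13, MMP7 lies at -422.5 kb and MMP12 at -80.3 kb. The other cluster members MMP7, MMP20, MMP27, MMP8, MMP10, MMP1, MMP3 and MMP12 had at most 20 reads in any library. MMP13 was the cluster's only MMP gene with enough counts to be tested. Of the listed neighbours with other functions, PDGFD was at 0 in every library and WTAPP1 had a mean of 29.3 reads, while the other 6 had 90 or more reads in each library. DCUN1D5, 107.7 kb beyond MMP13, had a log2 fold change, DOX-positive over DOX-negative, of -0.030 (SE 0.088, adjusted p = 0.88), and DYNC2H1, 166.4 kb beyond, had -0.17 (SE 0.14, adjusted p = 0.54). On the other side, the groups overlapped for TMEM123 (log2 fold change -0.082, SE 0.097, adjusted p = 0.69) and BIRC2 (0.080, SE 0.13, adjusted p = 0.77). BIRC3, an inhibitor of apoptosis, went from 1.68 ± 0.29 to 2.51 ± 0.62 CPM (log2 fold change 0.59, SE 0.20, adjusted p = 0.11). YAP1, the Hippo pathway coactivator, had a log2 change of 0.30 (SE 0.11, adjusted p = 0.16). The groups did not overlap for BIRC3 and YAP1, both higher with DOX, beside 14.8% of all tested genes that did so in that direction. Of 8 listed neighbours, 7 were tested and 0 were called by edgeR, DESeq2 or limma-voom, with 2 at an unadjusted p under 0.05 by edgeR (BIRC3 and YAP1).

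**Figure D3:**
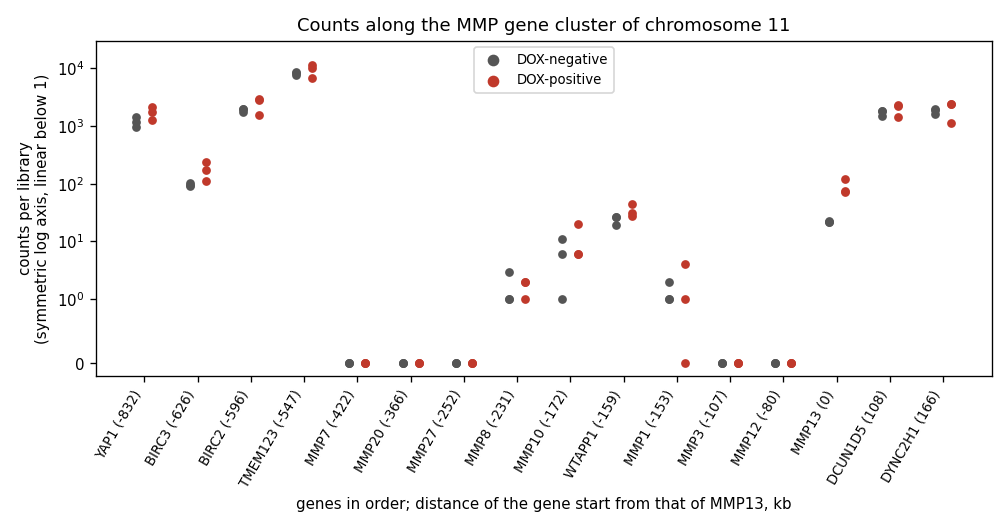
Reads per library (symmetric log axis, linear below 1) for genes of the chromosome 11 MMP cluster and their neighbours, in genome order and with the distance in kb from MMP13. The MMP genes other than MMP13 sit at 0 to 20 reads while BIRC3 and the other protein-coding flanking genes hold 90 or more.

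MMP15, or MT2-MMP, is a membrane-type protease that cuts matrix at the cell surface, and its gene lies at chr16:58025754-58046901. Without DOX it stood at 100.9, 105.0 and 96.7 CPM, and with DOX at 95.6, 113.5 and 102.3 CPM. The DOX-positive libraries included both the lowest and the highest value. The log2 fold change was 0.041 (SE 0.080, adjusted p = 0.82), and it was between -0.025 and 0.098 when each library was left out in turn. MMP16, or MT3-MMP, an activator of MMP2 whose gene lies on chromosome 8, stood at 33.3, 33.5 and 36.4 CPM without and 35.0, 29.7 and 36.2 CPM with DOX. Its groups overlapped as well, and the fitted log2 change of -0.031 (SE 0.093, adjusted p = 0.89) changed sign without DOX-negative replicate 3 or DOX-positive replicate 2. Neither gene was called in any alternative fit.

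MMP14, or MT1-MMP, the chief activator of MMP2 in many tissues, lies at chr14:22836585-22847758 and was near the limit of counting. It had 14, 16 and 14 reads in the DOX-negative and 14, 13 and 18 reads in the DOX-positive libraries. In CPM these were 0.219, 0.259 and 0.294 against 0.185, 0.236 and 0.244, and the groups overlapped (log2 fold change -0.21, SE 0.32, adjusted p = 0.77). MMP14 lay far below MMP15 and MMP16 in every library. Of the membrane-type genes outside the 10, MMP24 (MT5-MMP), known from the nervous system, had a log2 change of 0.034 (SE 0.10, adjusted p = 0.89), and MMP17 (MT4-MMP) had -0.10 (SE 0.16, adjusted p = 0.76). MMP24 shares its locus with MMP24OS, which stood at 24.0 to 35.5 CPM. MMP11, or stromelysin 3, had a log2 change of -0.29 (SE 0.16, adjusted p = 0.32). Of the 15 listed MMP genes outside the 10, 3 were tested and 0 were called by edgeR, DESeq2 or limma-voom, and 0 had an unadjusted p under 0.05 by edgeR.

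TIMP2 inhibits most MMPs and lies at chr17:78852977-78925387. It stood at 52.7, 51.9 and 44.3 CPM in the DOX-negative and at 44.4, 52.8 and 48.0 CPM in the DOX-positive libraries. These overlapped throughout, with means of 49.6 ± 4.65 and 48.4 ± 4.23 CPM (SD, n = 3), and the fitted log2 change was -0.037 (SE 0.093, adjusted p = 0.87). TIMP2 held 95.5% to 97.0% of all TIMP TPM. Its share was 96.7% ± 0.500 without and 95.8% ± 0.224 with DOX, and the groups did not overlap.

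TIMP1, an inhibitor of most secreted MMPs, lies at chrX:47582436-47586789 within the gene SYN1, which had a mean of 2564.3 reads per library. It had 2, 1 and 7 reads in the DOX-negative and 1, 0 and 0 reads in the DOX-positive libraries. The sum of 10 against 1 gave a DOX-positive to DOX-negative ratio of 0.0849 (95% counting interval 0.00196 to 0.597). Without DOX-negative replicate 3, which held most of these reads, the sums were 3 and 1 and the ratio was 0.205 (0.00391 to 2.56). The CPM of the groups did not overlap, lower with DOX, but this rests on the scaling to library size. DOX-negative replicate 2 and DOX-positive replicate 1 had 1 read each. TIMP1 had too few reads to be tested.

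The other inhibitors were TIMP3, which binds to the matrix, TIMP4, RECK, a membrane-anchored inhibitor, and the plasma inhibitors A2M and PZP, with LRP1 as the receptor that clears MMPs from the cell surface. TIMP3 had 133, 124 and 71 reads in the DOX-negative and 187, 190 and 219 reads in the DOX-positive libraries. Its groups did not overlap, at 1.86 ± 0.32 and 2.97 ± 0.49 CPM (SD, n = 3). The log2 fold change of 0.66 (SE 0.17) missed the threshold by edgeR (adjusted p = 0.051), while DESeq2 gave an adjusted p of 0.023 and limma-voom gave 0.074. Leaving out DOX-positive replicate 1 gave an edgeR value of 0.030, whereas leaving out each of the other 5 libraries gave 0.060 to 0.21, highest when DOX-negative replicate 3 was dropped. The share of TIMP3 in TIMP TPM was 2.36% ± 0.210 without and 3.82% ± 0.300 with DOX. TIMP3 overlaps SYN3, which had a mean of 728 reads. RECK stood at 5.76 ± 0.67 and 4.55 ± 0.28 CPM, with no overlap and lower values with DOX (log2 fold change -0.34, SE 0.12, adjusted p = 0.14). LRP1 had a log2 fold change of -0.12 (adjusted p = 0.73). Of these 6 genes, 3 were tested and 0 were called by edgeR, with 2 at an unadjusted p under 0.05, while DESeq2 called 1 (TIMP3) and limma-voom 0.

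Proteases that activate MMPs were examined next. Of 15 activators and inducers, 12 were tested and 1 was called, beside 4.87% of all tested genes called in either direction. This was PLAU (urokinase), which makes plasmin from plasminogen. PLAU rose from 12.5, 10.6 and 10.7 CPM in the DOX-negative to 26.6, 31.8 and 39.8 CPM in the DOX-positive group, without overlap. Its log2 fold change was 1.54 (SE 0.14, adjusted p = 0.00080). Plasmin can activate several MMP precursors, among them that of MMP13. PLG, the plasminogen gene, had 0 reads in every library, and the activation of MMP precursors was not tested. The other tested activators were not called, and the median log2 fold change of the list was 0.045.

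Among 30 genes of the related ADAM and ADAMTS families, 21 were tested, 1 was called higher and 2 were called lower. Over all tested genes, 2.91% were called higher and 1.96% lower. ADAMTS1, which cuts the proteoglycan versican, rose from 0.57 ± 0.083 to 1.80 ± 0.23 CPM (log2 fold change 1.68, SE 0.20, adjusted p = 0.0024). ADAMTS14, a procollagen N-proteinase, fell (log2 fold change -0.69, SE 0.15, adjusted p = 0.023), and so did ADAMTS18 (log2 fold change -0.44, SE 0.099, adjusted p = 0.028). Without DOX-negative replicate 2 the call was lost for ADAMTS14 and for ADAMTS18 alike (adjusted p = 0.079 each), and without DOX-negative replicate 3 as well (0.14 each). ADAMTS18 also lost its call without DOX-negative replicate 1 (0.078) or DOX-positive replicate 3 (0.064).

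Some MMP promoters respond to AP-1, RUNX, ETS, C/EBP, NF-κB or STAT factors. A list held 19 genes of such factors, of which 18 were tested. In these, 14 had a log2 fold change above 0 and 4 below, with a median of 0.26 against 0.00034 over all tested genes. By edgeR 3 were called higher and 1 lower, beside 2.91% and 1.96% of all tested genes. DESeq2 called 8 in either direction, beside 1355 of the 16078 genes for which it gave an adjusted p. FOSL1, an AP-1 subunit, had 15, 10 and 3 reads without and 33, 28 and 40 reads with DOX (log2 fold change 1.62, SE 0.36, adjusted p = 0.028). FOS, another AP-1 subunit, fell from 100.3 ± 19.4 to 50.7 ± 4.70 CPM (log2 fold change -0.99, SE 0.12, adjusted p = 0.0024). The AP-1 subunits thus included a gene that rose and a gene that fell. FOSL2 rose (0.48, SE 0.087, adjusted p = 0.012), as did RUNX1 (0.37, SE 0.088, adjusted p = 0.036), while RUNX2, known for MMP13 control in bone cells, had a log2 fold change of 0.17 and was not called (adjusted p = 0.64). FOSL1, FOSL2 and RUNX1 each lost their call without DOX-negative replicate 2 (adjusted p = 0.11, 0.069 and 0.18) and without DOX-negative replicate 3 (0.11, 0.082 and 0.15). FOSL1 also lost it without DOX-positive replicate 2 (0.057) or DOX-positive replicate 3 (0.080), and RUNX1 without DOX-negative replicate 1 (0.053) or DOX-positive replicate 3 (0.11).

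Matrix proteins that MMPs cut were a further list. Of 26 genes, 19 were tested, and 15 of these had a log2 fold change above 0. The list median was 0.26, against 0.00034 over all tested genes. By edgeR 4 were called, all higher, beside 2.91% of all tested genes called higher and 1.96% called lower. The groups did not overlap for 7 genes higher and 2 lower with DOX, beside 14.8% and 13.3% of all tested genes. FN1, which encodes fibronectin, rose from 337.4 ± 56.4 to 768.4 ± 137.0 CPM (log2 fold change 1.19, SE 0.14, adjusted p = 0.0025). LUM (lumican) rose by 1.06 on the log2 scale (SE 0.24, adjusted p = 0.030) and COL1A1 (a chain of type I collagen) by 0.60 (SE 0.12, adjusted p = 0.019). Without DOX-negative replicate 2 or DOX-negative replicate 3, adjusted p-values were 0.13 and 0.14 for LUM, and 0.083 and 0.12 for COL1A1. LUM also lost its call without DOX-positive replicate 3 (0.077).

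**Figure D4:**
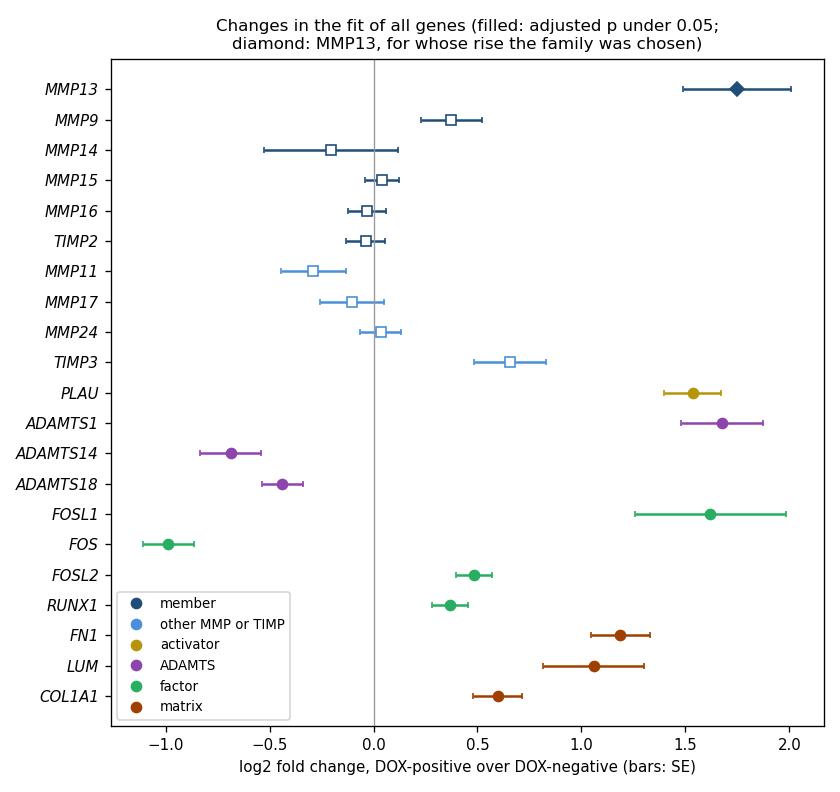
Log2 fold changes, DOX-positive over DOX-negative, with SE bars for the members with enough counts, further MMP and TIMP genes, and called genes of the activator, ADAMTS, transcription factor and matrix lists. MMP13 at 1.75 is drawn as a diamond because it was chosen for its rise, and the other members lie between -0.21 and 0.38.

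Markers of other cell types were read in the same libraries, where 2.91% of all tested genes were called higher and 1.96% lower. The fibroblast markers summed to 25.2 to 30.7 CPM in the DOX-negative and 23.5 to 27.9 CPM in the DOX-positive libraries, and 3 of 10 were tested, of which COL1A1 and LUM were called higher. The third, COL1A2, stood at 18.1 ± 3.48 and 11.1 ± 3.77 CPM, lower with DOX without overlap but not called (log2 fold change -0.71, SE 0.27, adjusted p = 0.20), and COL3A1, THY1 and POSTN were at 0. Macrophage markers summed to 2.61 to 2.89 and 3.48 to 3.89 CPM, and 2 of 6 were tested. CD68 was called higher, at 1.12 ± 0.045 and 1.92 ± 0.083 CPM, while CD14 was not called (log2 fold change 0.14, SE 0.17, adjusted p = 0.70). PTPRC had at most 1 read, and CSF1R, ITGAM and LYZ had at most 9 in any library. Endothelial markers summed to 4.19 to 5.43 and 7.17 to 8.69 CPM, with VWF and CDH5 called higher, KDR not called at 0.81 ± 0.25 and 0.48 ± 0.39 CPM (log2 fold change -0.74, SE 0.49, adjusted p = 0.44), and PECAM1 at 0 to 6 reads. Markers of hypertrophic chondrocytes and osteoblasts, which make MMP13 in the skeleton, summed to 0.469 to 0.630 and 0.655 to 0.767 CPM, and COL10A1 had at most 2 reads. The 2 tested markers of this set went in opposite directions, and neither was called. The log2 fold change was 0.62 for IBSP (SE 0.30, adjusted p = 0.26) and -0.50 for BGLAP (SE 0.39, adjusted p = 0.51). The part of these markers in the MMP13 and matrix results was not tested.

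The genes whose pattern over the 6 libraries was most like that of MMP13 were found by the root mean square difference of centred log2 CPM, over 14586 genes with a mean of at least 50 reads. They were ATP1B2, a subunit of the sodium pump (0.111), ADAMTS1 (0.152), PLAU (0.188), CCDC80 (0.195) and CXCL8, which encodes interleukin 8 (0.244). This is a description of 6 points per gene that share library and group, and a gene that rose as much as MMP13 is near it by construction. DOX-positive replicate 3 was the highest library for each of these genes, which likeness to MMP13 favours. It was also the highest for FN1 and FOSL1, which were not among them, while DOX-positive replicate 2 was the highest for MMP9 and TIMP3.

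**Figure D5:**
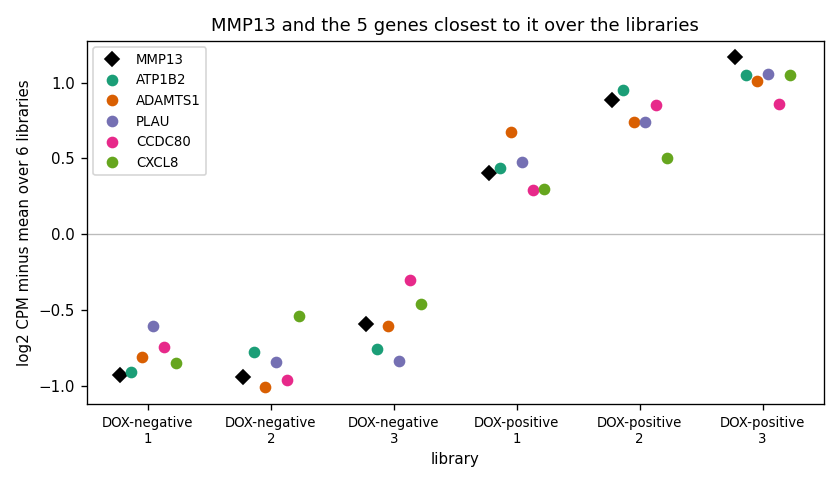
Centred log2 CPM of MMP13 and the 5 genes closest to it, with the 6 libraries on the x axis. All 6 genes lie below 0 in the DOX-negative and above 0 in the DOX-positive libraries, as their choice by likeness to MMP13 entails.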

How the data were processed

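The authors deposited raw read counts per gene symbol and TPM values, in which each count is divided by the length of its gene before scaling to the library. The submitters' processing notes name STAR, DESeq2 and GRCh38/hg38, with no version given. The strand setting of the counting was not given in the sources used here, although per the labels the kit was stranded. All columns matched a sample by its title. Counts were tested with edgeR 4.0.16 in R 4.3.3 (filterByExpr, TMM factors, robust quasi-likelihood fit, no covariate), with Benjamini-Hochberg adjustment over 17026 genes and a threshold of 0.05. Normalized CPM use the TMM factors, which were between 0.967 and 1.03, and fold changes are DOX-positive over DOX-negative. A floor of 3 reads per library corresponds to 0.0405 to 0.0630 CPM. The 6 pairs of libraries within groups differed beyond sampling noise (chi-square per degree of freedom 15.6 to 95.1), so all were counted as separate samples.

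Genes were named by a rule: all members, MUC1, other MMP and TIMP genes with a mean of at least 10 reads, up to 4 called genes with the largest change in each list, and the 5 genes most like MMP13. MMP8, MMP10, RECK, LRP1, RUNX2, the neighbours of the cluster, the genes at 0 and the marker genes were named besides these, after values had been seen. The members and lists were chosen with earlier results of these data known, and the lists were written by hand. From these lists, 1 called gene and 1 set of markers are not reported here. The code was tested on simulated data. Alternatives were other scaling factors and count filters, DESeq2 1.42.0, limma-voom and limma-trend (limma 3.58.1) on log2 TPM with pseudocounts of 1 and 0.1, a replicate block, and leaving out each library. Fits on protein-coding genes only and on TPM rescaled over protein-coding genes were added after seeing the data. Gene positions, overlaps, biotypes and promoters came from RefSeq (GRCh38.p14).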

Additional observations from a re-analysis of the deposited data

How the results depend on the processing

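The number of genes called was 829, and it was 1355 by DESeq2, 30 by limma-trend for genes at a mean TPM of 1 or more with a pseudocount of 1, 35 for the same genes with a pseudocount of 0.1, and 188 on log2(TPM + 0.1) over protein-coding genes. By limma-trend on log2(TPM + 1) without a filter 0 genes were called, with 1248 at an unadjusted p under 0.05. Leaving out each library gave 58 (without DOX-negative replicate 3) to 1035 genes (without DOX-positive replicate 1). The number of members called was 1, and 0 in the 3 fits on deposited TPM, of which the 2 with a minimum tested only 3 members and not MMP13. The MMP13 log2 fold change was 0.23 on log2(TPM + 1), where a pseudocount of 1 exceeds its level, and 1.55 to 1.94 with a library left out. MUC1 missed the threshold on log2(TPM + 1) without a filter (-1.22, adjusted p = 0.29) and had -1.37 to -1.22 with a library left out. With a library left out, the log2 fold change was -0.025 to 0.098 for MMP15, -0.088 to 0.053 for MMP16, -0.12 to 0.023 for TIMP2, -0.20 to 0.059 for MMP17 and -0.026 to 0.12 for MMP24, so that each of these changed sign in at least 1 such fit. The correlations of same-numbered libraries over 15973 genes, centred within groups, were -0.43, 0.012 and -0.12. They gave no sign of pairing by replicate number but cannot exclude it, since the centring constrains them. A fit with the replicate number as a block called 998 genes and gave MMP13 a log2 fold change of 1.71, and FN1 missed the threshold in it (adjusted p = 0.062). Read numbers limit MMP2 and MMP7 (0 reads), MMP1 and TIMP1 (at most 7 per library), MMP14 (at most 18) and MMP13 without DOX (22 or 23).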
